A study of Arabidopsis thaliana with 12 samples.

Results

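Arabidopsis thaliana genes that make or remove reactive oxygen species, 10 in all, were followed across leaf age and abscisic acid (ABA) treatment. They were picked by locus identifier from the 32678 genes of the count table, and all 10 were found there. They comprised the NADPH oxidases RBOHD (AT5G47910) and RBOHF (AT1G64060), the superoxide dismutases FSD1 (AT4G25100), CSD1 (AT1G08830) and CSD2 (AT2G28190), the ascorbate peroxidases APX1 (AT1G07890) and APX2 (AT3G09640), and the catalases CAT1 (AT1G20630), CAT2 (AT4G35090) and CAT3 (AT1G20620). Of the 10, 9 passed the filter on low counts (an average of 10 counts or more per library) and were tested among 18291 genes. APX2 did not pass.

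The plants were Col-0, a standard wild-type accession, 4 to 5 weeks old, and the labels name no introduced allele or transgene. They received a foliar spray of 500 µM ABA or a mock spray. Both solutions contained 0.5% ethanol and the detergent Tween20. Leaves were collected 48 h later as 4 groups of 3 libraries: ABA-treated young leaves (true leaf 12, L12), mock-treated young leaves, ABA-treated old leaves (true leaf 7, L7) and mock-treated old leaves. The study asked whether leaves of different age answer the stress hormone ABA differently. The experiment was carried out 3 times, and the replicate number was taken to mark the repeat. The sources used here do not say how many plants stand behind each library.

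Superoxide formed outside the plasma membrane by NADPH oxidases, or in chloroplasts and other organelles by electron transport, is converted to hydrogen peroxide by superoxide dismutases. Ascorbate peroxidases reduce hydrogen peroxide with ascorbate, and catalases break it down in peroxisomes without a reductant. RBOHD supplies most of the oxidative burst of immune signalling, and RBOHF acts beside it in ABA-driven stomatal closure. Iron and copper/zinc forms of superoxide dismutase replace each other with copper supply in Arabidopsis: the transcription factor SPL7 turns on FSD1 and the microRNA miR398 when copper is scarce, and miR398 lowers the CSD1 and CSD2 messages.

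Each library held 11811137 to 21485394 counts on genes. Levels are given as CPM, the read count relative to the library total after scaling by the trimmed mean of M-values (TMM), whose factors ran from 0.612 to 1.30. Adjusted p-values come from the quasi-likelihood test of edgeR, fitted with the replicate number as a block and adjusted by the Benjamini-Hochberg method over all 18291 genes. A gene was called where the adjusted p was below 0.01 and the log2 fold change exceeded 1 in size. These are the cut-offs of the study, which applied them to q-values after limma with voom. A looser threshold, an adjusted p below 0.05 with no minimum fold, was also applied, and "rose" and "fell" below mean that at least this threshold was passed. Within groups, long transcripts had relatively low counts in all 4 replicate-3 libraries (Spearman rho across genes between deviation and transcript length, −0.564 to −0.394) and not in the other 8 (0.0196 to 0.577). Whole leaves were sampled, so fewer cells of a type and less RNA per cell cannot be told apart.

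In young leaves 0 of 9 tested members were called after ABA by edgeR, against 4.54% of all genes. At an unadjusted p below 0.05 there were 5 members, against 34.2% of all genes. DESeq2 called 3 members, and 2054 of all 18291 genes, and limma with voom called 1 member, and 976 of all genes. At the looser threshold 4 of 9 passed, against 14.6% of all genes: RBOHD, APX1 and CSD2 fell and RBOHF rose. In old leaves 0 of 9 were called by edgeR, against 2.94% of all genes, with 2 members at an unadjusted p below 0.05, against 28.7% of all genes. DESeq2 called 1 member, and 1712 of all genes, and limma with voom called 0, and 668 of all genes. At the looser threshold 1 of 9 passed there, against 11.5% of all genes: FSD1 fell. The median log2 fold change of the 9 members was −0.37 in young leaves and −0.33 in old leaves, beside 0.03 over all genes in each.

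**Figure D1:**
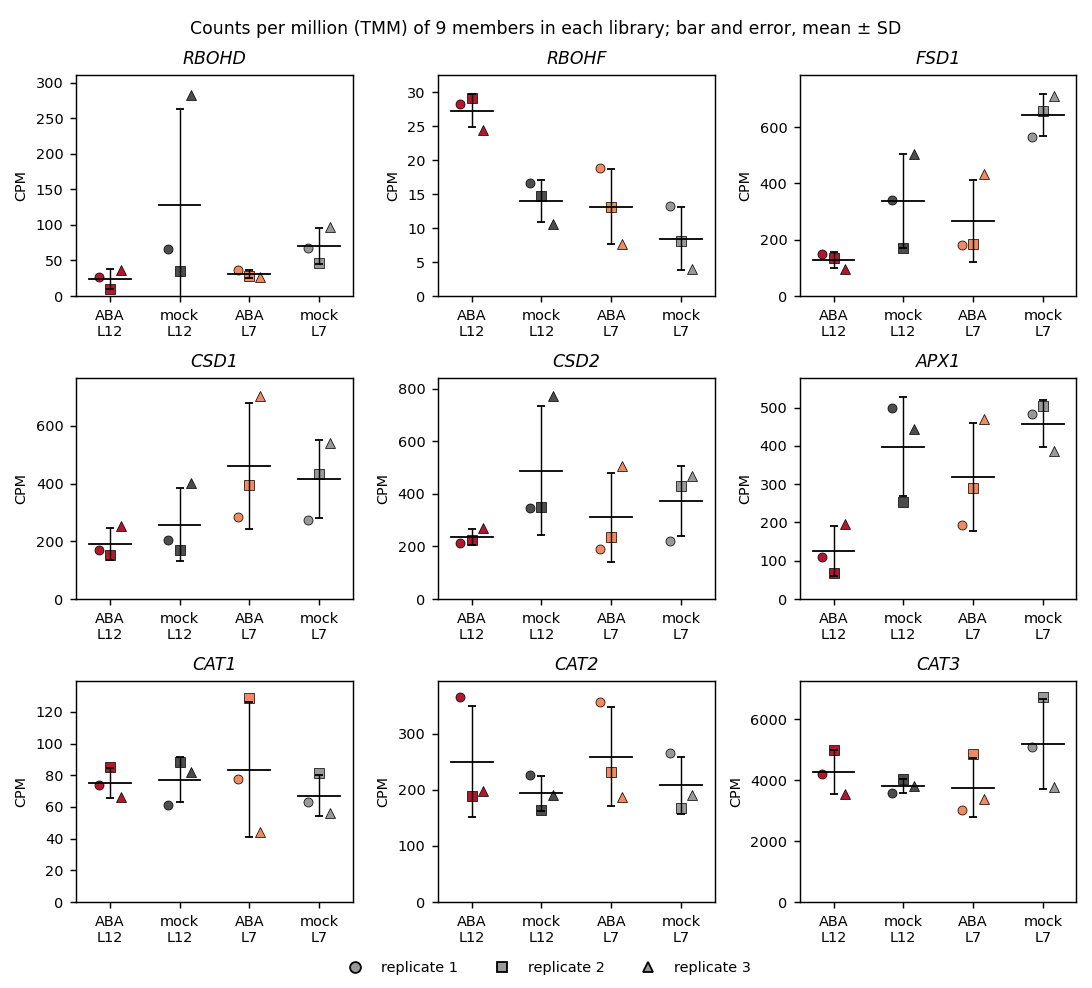
TMM-scaled CPM of 9 members (vertical axes) in the 4 groups (horizontal axes); symbols are the 3 replicates, horizontal lines the means and error bars the SD, cut at 0 for RBOHD in mock L12. RBOHF is at 24.5 to 29.1 CPM in ABA L12 against 10.6 to 16.7 in mock L12, APX1 at 67.7 to 196.0 against 252.4 to 498.1, and a single library at 282.0 CPM stretches the RBOHD mock L12 group.

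**Figure D2:**
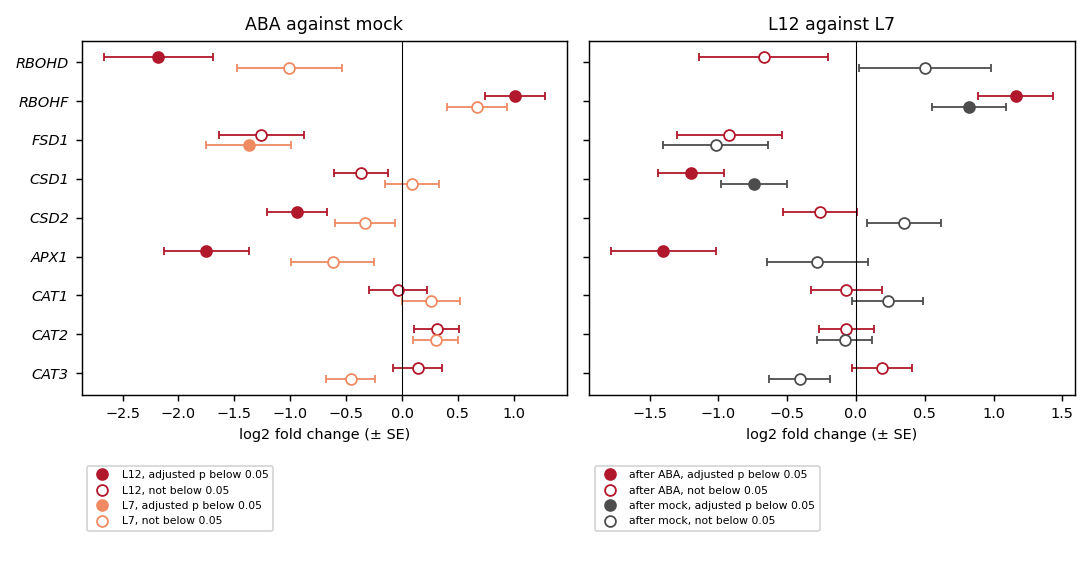
Log2 fold changes (horizontal axes) with their SE for 9 members; left, ABA against mock in L12 and L7; right, L12 against L7 after ABA and after mock. Filled points have an adjusted p below 0.05. RBOHD (−2.18), APX1 (−1.75) and CSD2 (−0.94) lie to the left and RBOHF (1.01) to the right in ABA-treated L12, and the 3 catalases stay within 0.46 of 0 in every ABA comparison.

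The NADPH oxidases moved in opposite directions in young leaves. RBOHD had 26.3, 9.63 and 36.2 CPM in ABA-treated L12, against 65.6, 34.9 and 282.0 CPM in mock-treated L12. It stood at 0.401, 0.276 and 0.128 of the mock value in the 3 replicates, although the ranges overlapped, and mock replicate 3 was far above its partners. RBOHD fell by 2.18 on the log2 scale (SE 0.49, adjusted p = 0.0166). Without mock L12 replicate 3 the log2 fold change was −1.34 (adjusted p = 0.0603), without ABA L12 replicate 2 it was −1.99 (0.0717) and without ABA L12 replicate 3 it was −2.17 (0.0847). Omitting mock L12 replicate 2 (adjusted p = 0.00581) or ABA L7 replicate 3 (0.00981) made RBOHD a called gene.

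In old leaves RBOHD had 37.2, 28.5 and 27.4 CPM after ABA, against 68.2, 47.1 and 97.0 CPM after mock. These groups did not overlap, but the log2 fold change of −1.01 (SE 0.47) missed the threshold (adjusted p = 0.186). RBOHD thus gave lower values after ABA in 6 of 6 replicate pairs, with the threshold passed in L12 alone. The test of the difference between the leaf ages is given further on.

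RBOHF had 28.3, 29.1 and 24.5 CPM in ABA-treated L12, against 16.7, 14.7 and 10.6 CPM in mock-treated L12. The groups were apart, and RBOHF rose 2.01-fold (log2 fold change 1.01, SE 0.27, adjusted p = 0.0311). In old leaves it had 18.8, 13.1 and 7.64 CPM after ABA, against 13.2, 8.15 and 4.01 CPM after mock. Each ABA library of L7 was above its own mock partner, but the groups overlapped and the log2 fold change of 0.67 did not pass (adjusted p = 0.134). RBOHF has the longest transcript of the 10 genes, 3994 bases, and with transcript length and GC content adjusted for, its log2 fold change in L12 was 0.39 (adjusted p = 0.351). Leaving out mock L12 replicate 1 or 3, or ABA L12 replicate 2 or 3, also cost it the threshold, with adjusted p-values of 0.0824 to 0.143 and log2 fold changes of 0.74 to 1.11.

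The 2 oxidases stood closest in ABA-treated young leaves. Per kilobase of transcript, RBOHF was at 6.84 CPM and RBOHD at 6.67 CPM in ABA-treated L12, RBOHF at 3.50 and RBOHD at 35.4 in mock-treated L12, RBOHF at 3.30 and RBOHD at 8.61 in ABA-treated L7, and RBOHF at 2.11 and RBOHD at 19.6 in mock-treated L7 (means of 3 libraries). The other 8 RBOH genes of the genome did not pass the filter, with at most 45 counts in any library. Of 4 kinases known to phosphorylate RBOHD or RBOHF, 0 passed the looser threshold after ABA in either leaf. Of all genes, 14.6% passed it in L12 and 11.5% in L7. BIK1, the immune kinase that activates RBOHD, came closest, with log2 fold changes of −0.65 in L12 (adjusted p = 0.084) and −0.64 in L7 (adjusted p = 0.106).

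To place these 2 genes in the genome, the 300 bases ahead of each annotated start are shown (TAIR10.1 assembly). Capitals mark GTAC, the core bound by SPL7. The RBOHD window lies at chr5:19396741-19397040 on the plus strand and the RBOHF window at chr1:23769474-23769773 on the plus strand.
RBOHD: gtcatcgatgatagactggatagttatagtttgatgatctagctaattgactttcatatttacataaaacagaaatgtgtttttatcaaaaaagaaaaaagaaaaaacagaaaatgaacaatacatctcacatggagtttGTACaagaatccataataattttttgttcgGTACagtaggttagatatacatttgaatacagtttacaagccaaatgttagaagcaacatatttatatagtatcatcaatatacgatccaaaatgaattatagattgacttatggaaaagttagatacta
RBOHF: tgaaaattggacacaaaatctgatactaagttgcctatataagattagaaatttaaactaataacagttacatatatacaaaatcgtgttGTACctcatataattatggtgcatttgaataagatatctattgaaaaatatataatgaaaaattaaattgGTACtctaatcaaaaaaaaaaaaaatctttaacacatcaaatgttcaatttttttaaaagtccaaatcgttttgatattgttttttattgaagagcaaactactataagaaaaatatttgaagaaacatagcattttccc
Each window holds 2 copies of GTAC, beginning 160 and 130 bases before the start of RBOHD and 210 and 140 bases before the start of RBOHF. Neither holds ACGTG, the core of the ABA-responsive element. GTAC reads the same on both strands and occurs in 39.7% of such windows of 27443 protein-coding genes, and ACGTG, searched on both strands, in 25.6%.

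Among the superoxide dismutases, FSD1 (an iron enzyme of the chloroplast and cytosol) gave the largest log2 fold changes, and it was lower after ABA in all 6 replicate pairs. FSD1 had 150.6, 136.9 and 96.0 CPM in ABA-treated L12, against 340.0, 171.5 and 502.9 CPM in mock-treated L12. In old leaves it had 180.5, 184.9 and 434.2 CPM after ABA, against 564.7, 655.4 and 711.6 CPM after mock. The groups did not overlap at either age.

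FSD1 fell in L7 by 1.37 on the log2 scale (SE 0.38, adjusted p = 0.0435). In L12 the log2 fold change was −1.26 (SE 0.38) and lay just outside the threshold (adjusted p = 0.0505). These calls sit at the edge of the test. In L7 the threshold was passed when mock L12 replicate 2, mock L12 replicate 3 or ABA L12 replicate 3 was left out, and missed without any 1 of the other 9 libraries, with adjusted p-values of 0.0513 to 0.173 and log2 fold changes of −1.73 to −1.15. In L12 it was passed without mock L12 replicate 2 (adjusted p = 0.013) or ABA L7 replicate 3 (0.0399). Of 9 other settings, 5 also passed it in L12, among them DESeq2 (0.0143), limma with voom (0.0364) and the length and GC adjustment (0.0477). It was missed there without the replicate block (0.0965) and with scaling by library size (0.0669), among others.

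CSD2, the chloroplast copper/zinc enzyme, had 213.3, 224.9 and 268.4 CPM in ABA-treated L12, against 346.1, 349.3 and 770.5 CPM in mock-treated L12. The groups were apart, and CSD2 fell by 0.94 on the log2 scale (SE 0.27, adjusted p = 0.0434). In old leaves the ranges overlapped, with 191.0, 235.5 and 504.8 CPM after ABA against 219.9, 429.3 and 468.2 CPM after mock (log2 fold change −0.33, adjusted p = 0.439). The L12 result missed the threshold without mock L12 replicate 1 or 3, ABA L12 replicate 2 or 3, mock L7 replicate 3, or ABA L7 replicate 1 or 2, with adjusted p-values of 0.0557 to 0.171 and log2 fold changes of −0.95 to −0.72. It also missed the threshold with RLE factors (−0.91, adjusted p = 0.0561), with scaling by library size (−0.57, 0.0707) and with only the groups compared (−0.90, 0.076).

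CSD1, the cytosolic copper/zinc enzyme, did not pass after ABA at either age. It had 168.3, 151.9 and 253.0 CPM in ABA-treated L12 against 204.0, 168.3 and 402.6 CPM in mock-treated L12, and 282.9, 396.2 and 702.7 CPM in ABA-treated L7 against 273.5, 434.1 and 541.5 CPM in mock-treated L7. The log2 fold changes were −0.37 (adjusted p = 0.282) and 0.09 (adjusted p = 0.827). CSD1 overlaps its antisense neighbour AT1G08840 by 211 bases. That neighbour had 5 to 178 counts per library, and the sources used here do not say whether counting used the strand.

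The make-up of the messages of these 3 superoxide dismutases was therefore compared directly, as the share of each gene in the summed counts per kilobase of FSD1, CSD1 and CSD2. Other superoxide dismutases were not part of the sum. This share is taken within a library, so the scaling between libraries does not enter it. In old leaves FSD1 held 21.8, 17.6 and 20.9% after ABA, against 45.8, 36.1 and 34.3% after mock. CSD1 held 50.1, 55.2 and 49.6% after ABA, against 32.5, 35.1 and 38.3% after mock, so that CSD1 exceeded FSD1 in 3 of 3 ABA libraries and in 1 of 3 mock libraries. CSD2 stayed at 28.3% ± 1.17 after ABA and 26.0% ± 3.77 after mock (SD, n = 3 each).

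In young leaves CSD1 held 37.6, 35.2 and 46.8% after ABA, against 28.2, 29.3 and 29.1% after mock, again without overlap. A share is relative to the other genes in the sum. CSD1 itself did not rise: its log2 fold change after ABA was −0.37 in L12, lower in each replicate pair, and 0.09 in L7. FSD1 held 18.9% ± 5.90 after ABA and 25.7% ± 5.92 after mock (SD, n = 3 each), which overlapped. By exact two-sided permutation tests over samples, the difference in mean share was −18.6 percentage points for FSD1 in L7 and 16.3 for CSD1 in L7, and CSD1 averaged 39.9% after ABA against 28.9% after mock in L12, each with p = 0.1, the smallest p that 3 against 3 libraries allow. The smallest Benjamini-Hochberg value over the 24 share tests made was 0.24. These permutations exchanged the libraries of a comparison freely and did not use the replicate number, unlike the edgeR fit.

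**Figure D3:**
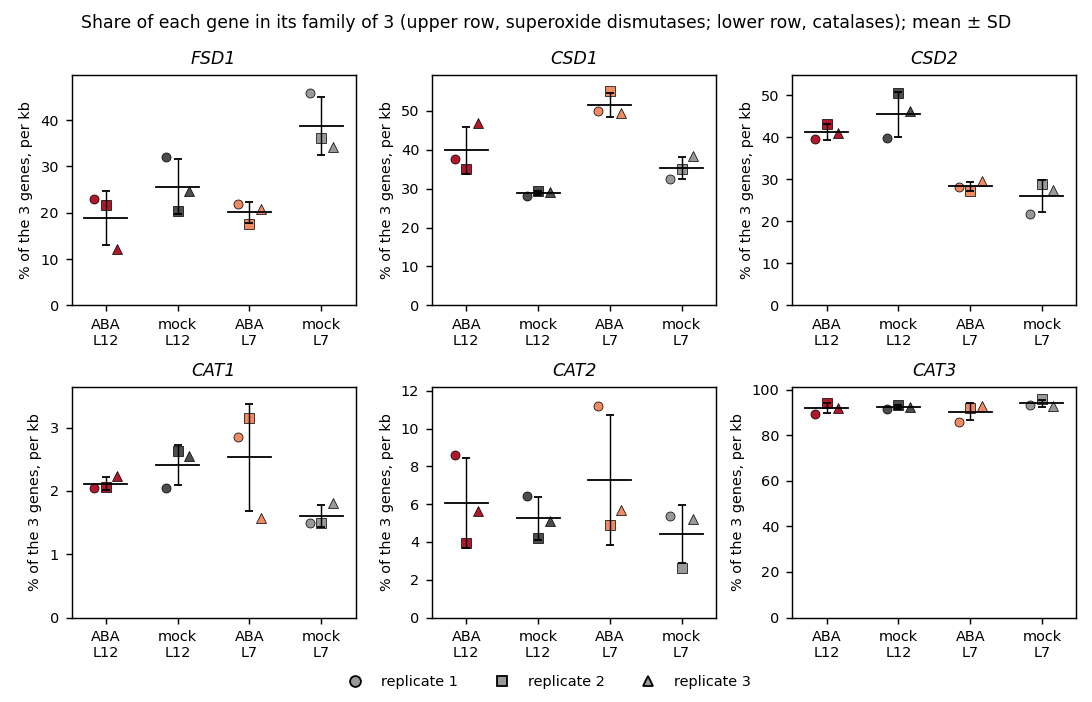
Share of each gene in the summed counts per kilobase of FSD1, CSD1 and CSD2, or of CAT1, CAT2 and CAT3 (vertical axes, %), in the 4 groups; symbols are the 3 replicates, lines the means and error bars the SD. CSD1 is at 49.6 to 55.2% of the FSD1, CSD1 and CSD2 messages in ABA L7 against 32.5 to 38.3% in mock L7, and CAT3 is above 85% of the catalase messages in every library.

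Because FSD1, CSD1 and CSD2 are tied to copper through SPL7 and miR398, the sequences of that link are shown. The mature miR398c is encoded at chr5:4694778-4694798 on the plus strand, and miR398b has the same sequence. Capitals mark its seed in the first line, and in the target lines they mark bases that pair with it by the Watson-Crick rule.
miR398c-3p: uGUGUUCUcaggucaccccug
CSD1: aAGGGGUuuCCUGAGAuCACA
CSD2: ugcGGGUGACCUGgGAAacau
CCS: auuGGGaGACCUGgGAACACu
The CSD1 site lies ahead of the coding sequence at chr1:2827177-2827685, interrupted by an intron, with 4 unpaired positions. The CSD2 site lies in coding sequence of exon 4 at chr2:12015572-12015592 with 8, of which 3 are G:U pairs. The site in CCS, the copper chaperone of these dismutases, lies in coding sequence at chr1:4267521-4267541 with 6. The best window of FSD1, which is no known target, has 7. The search allowed no gap or bulge and counted G:U pairs as unpaired. These counts therefore do not rank the sites by how well they pair with miR398.

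The FSD1 start is preceded by the window chr4:12887012-12887311 on the minus strand, again with GTAC in capitals.
FSD1: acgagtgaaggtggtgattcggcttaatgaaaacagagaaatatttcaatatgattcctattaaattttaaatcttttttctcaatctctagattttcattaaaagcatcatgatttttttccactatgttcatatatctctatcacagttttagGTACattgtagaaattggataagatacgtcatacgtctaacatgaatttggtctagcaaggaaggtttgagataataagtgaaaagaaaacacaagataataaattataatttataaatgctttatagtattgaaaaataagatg
It holds 1 GTAC, beginning 145 bases before the start, and no ACGTG.

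The precursor of miR398c was measured as MIR398C in these polyA-selected libraries, which do not show the mature microRNA. It had 3.50, 3.12 and 3.11 CPM in ABA-treated L12 against 9.31, 3.64 and 21.5 CPM in mock-treated L12, and 4.72, 3.72 and 9.15 CPM in ABA-treated L7 against 18.9, 12.0 and 33.9 CPM in mock-treated L7. MIR398C fell by 1.48 in L12 (adjusted p = 0.0299) and by 1.86 in L7 (adjusted p = 0.0131) on the log2 scale. FSD1 and this precursor were both lower after ABA in every replicate pair. MIR398B, the precursor of miR398b, did not pass, with log2 fold changes of −0.03 in L12 (adjusted p = 0.982) and −1.78 in L7 (adjusted p = 0.133).

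Of the 11 genes listed for the copper response, 8 were tested. In L12, 2 fell and 1 rose at the looser threshold, where 14.6% of all genes passed. In L7, 3 fell and 0 rose, where 11.5% of all genes passed. The median log2 fold change was −0.41 in L12 and −1.27 in L7, beside 0.03 over all genes in each. COPT6, a copper transporter, fell by 1.03 in L12 (adjusted p = 0.0336) and by 1.38 in L7 (adjusted p = 0.0125). CCH, a copper chaperone, fell by 1.16 in L7 (adjusted p = 0.0283) and gave −0.79 in L12. The metal reductase FRO4 went the other way in L12, where it rose with a log2 fold change of 1.72 (adjusted p = 0.0121). CCS gave −0.04 in L12 and 0.06 in L7, with adjusted p-values of 0.917 and 0.862.

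**Figure D4:**
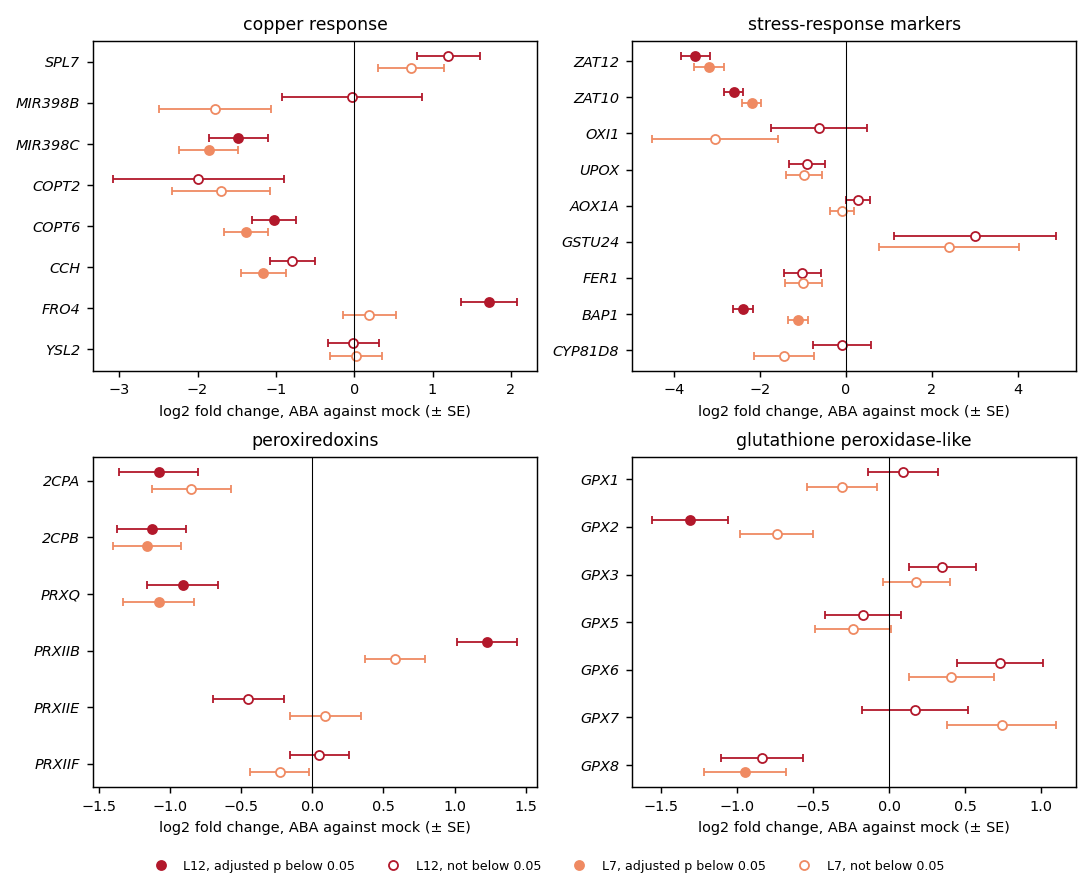
Log2 fold changes of ABA against mock (horizontal axes) with their SE in L12 and L7 for the tested genes of 4 related lists; filled points have an adjusted p below 0.05. MIR398C and COPT6 lie left of 0 at both ages, ZAT12 (−3.51 in L12 and −3.19 in L7) and ZAT10 (−2.61 and −2.19) lie far to the left, and PRXIIB (1.23 in L12) lies to the right while 2CPB (−1.13 and −1.16) and PRXQ (−0.91 and −1.08) lie to the left.

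APX1, the main cytosolic ascorbate peroxidase, showed the second largest log2 fold change of the members. It had 110.3, 67.7 and 196.0 CPM in ABA-treated L12, against 498.1, 252.4 and 444.7 CPM in mock-treated L12. The groups were apart, and APX1 fell by 1.75 on the log2 scale, to a level 3.36-fold lower (SE 0.38, adjusted p = 0.0143). It was at 0.221-, 0.268- and 0.441-fold of mock in the 3 replicates. In old leaves APX1 had 192.7, 289.9 and 471.3 CPM after ABA, against 482.4, 503.9 and 387.5 CPM after mock. Replicates 1 and 2 of L7 were lower and replicate 3 was higher, and the log2 fold change of −0.62 did not pass (adjusted p = 0.29).

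APX1 in L12 was a called gene by limma with voom (adjusted p = 0.00971) and DESeq2 (8.57e-05). It missed the looser threshold without mock L12 replicate 1, ABA L12 replicate 1 or ABA L12 replicate 2 (adjusted p-values of 0.0556 to 0.0722), and without mock L12 replicate 2 it was called (0.00849). The APX1 start is preceded by the window chr1:2436981-2437280 on the plus strand, with ACGTG, the core of the ABA-responsive element, in capitals.
APX1: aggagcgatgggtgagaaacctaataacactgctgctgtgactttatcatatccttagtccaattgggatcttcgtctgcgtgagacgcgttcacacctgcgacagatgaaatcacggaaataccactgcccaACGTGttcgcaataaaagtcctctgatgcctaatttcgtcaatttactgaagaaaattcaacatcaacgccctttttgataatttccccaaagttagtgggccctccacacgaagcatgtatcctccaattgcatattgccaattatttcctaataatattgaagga
It holds 1 ACGTG, beginning 167 bases before the start, 1 heat shock element (GAANNTTC, in 11.5% of windows) 116 bases before the start, and no GTAC.

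APX2, a heat- and light-inducible cytosolic form, was barely detected. It had 3, 0 and 0 counts in ABA-treated L12, 1, 0 and 0 in mock-treated L12, 1, 3 and 1 in ABA-treated L7, and 0, 0 and 1 in mock-treated L7. At this depth no difference could be measured. Of the other 6 ascorbate peroxidases, TAPX, the thylakoid form, fell at both ages, by 0.99 in L12 (adjusted p = 0.0212) and by 0.89 in L7 (adjusted p = 0.0362), and 0 others passed after ABA.

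No catalase passed the looser threshold after ABA at either age, beside 14.6% of all genes in L12 and 11.5% in L7. CAT3 was the most abundant member in every library. It had 4211, 5006 and 3562 CPM in ABA-treated L12 against 3582, 4055 and 3821 CPM in mock-treated L12 (log2 fold change 0.14, adjusted p = 0.675). In old leaves it had 3035, 4855 and 3394 CPM after ABA against 5087, 6735 and 3764 CPM after mock, lower in each replicate pair (−0.46, SE 0.22, adjusted p = 0.191). The L7 groups overlapped.

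CAT2, the main catalase of photorespiration, had 365.4, 188.7 and 197.1 CPM in ABA-treated L12 against 226.4, 164.1 and 190.7 CPM in mock-treated L12, and 357.5, 232.2 and 188.0 CPM in ABA-treated L7 against 265.4, 167.2 and 191.0 CPM in mock-treated L7. Its log2 fold changes were 0.31 (SE 0.20, adjusted p = 0.289) and 0.30 (SE 0.20, adjusted p = 0.349). CAT1, the least expressed of the 3, ranged from 44.3 to 128.8 CPM over all 12 libraries, with log2 fold changes of −0.04 in L12 (SE 0.26, adjusted p = 0.92) and 0.26 in L7 (SE 0.26, adjusted p = 0.541). CAT2 overlaps the antisense neighbour AT4G35080 by 95 bases, and that gene had 238 to 439 counts per library.

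CAT3 accounted for 85.9 to 95.9% of the catalase messages per kilobase in the 12 libraries. In L7 its share was 85.9, 92.0 and 92.7% after ABA, against 93.1, 95.9 and 93.0% after mock, a difference of −3.78 percentage points (exact permutation p = 0.1, n = 3 each). In L12 it was 91.8% ± 2.33 after ABA and 92.3% ± 0.821 after mock (SD, n = 3 each). CAT3 is known as an evening-phased gene and CAT2 as a morning-phased one. The morning clock gene CCA1 was at 0.66 to 15.0 CPM and the evening clock gene TOC1 at 50.8 to 166.3 CPM over the 12 libraries, and the sources used here do not give the hour of harvest. Of 4 genes listed as catalase partners, NCA1, a chaperone needed for catalase activity, rose in L12 with a log2 fold change of 0.81 (adjusted p = 0.0261), to 147.0, 161.7 and 142.1 CPM against 93.6, 105.0 and 65.5 CPM.

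By group means per kilobase, the members ran in a different order with ABA in young leaves than after mock in old leaves. These groups differ in both treatment and leaf age, and no pair that traded places was apart in both of them. In ABA-treated L12 the order was CAT3 (1477 CPM per kb), CSD2 (223.7), CSD1 (218.9), FSD1 (99.7), CAT2 (96.4), APX1 (90.0), CAT1 (33.8), RBOHF (6.84) and RBOHD (6.67). In mock-treated L7 it was CAT3 (1801), FSD1 (502.3), CSD1 (476.9), CSD2 (353.7), APX1 (330.7), CAT2 (80.0), CAT1 (30.1), RBOHD (19.6) and RBOHF (2.11). In ABA-treated L12 the ranges over libraries overlapped between neighbours for CSD2 and CSD1, for FSD1, CAT2 and APX1, and for the oxidases. In mock-treated L7 they overlapped between FSD1 and CSD1, CSD1 and CSD2, CSD2 and APX1, and CAT1 and RBOHD. Beyond neighbours, the ranges of FSD1 and CSD2 and those of CSD1 and APX1 overlapped there too.

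No member's ABA response was shown to differ between the leaf ages. In the test of the difference, L12 minus L7, 0 of 9 members were called and 0 passed the looser threshold, beside 0.0% and 0.0% of all genes by edgeR. DESeq2 and limma with voom also called 0 members, and 35 and 0 of all genes, and 0 members had an unadjusted p below 0.05, against 7.42% of all genes. The differences with the lowest p were APX1, at −1.12 (SE 0.52, unadjusted p = 0.0548, adjusted p = 0.686), CAT3, at 0.60 (SE 0.31, adjusted p = 0.721), and RBOHD, at −1.17 (SE 0.66, adjusted p = 0.755). With SE of 0.52 and 0.66, a missed threshold does not show that APX1 or RBOHD responded alike at both ages. For FSD1 the difference was 0.10 (SE 0.54).

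Leaf age itself was compared within each treatment. After ABA, 1 of 9 members was called, against 6.81% of all genes, and 3 of 9 passed the looser threshold, against 36.4%. After mock, 0 of 9 were called by edgeR, against 14.9% of all genes, with 3 members at an unadjusted p below 0.05, against 51.8% of all genes. DESeq2 and limma with voom called 0 members, and 4693 and 2954 of all genes. At the looser threshold 2 of 9 passed, against 41.2%. After mock both shares of the members were below those of all genes. After ABA the single call gave a share above that of all genes, and the looser threshold gave one below it. With 9 members a share moves in steps of a whole gene, and these differences from all genes were not tested.

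The called gene was CSD1. It had 168.3, 151.9 and 253.0 CPM in ABA-treated L12, against 282.9, 396.2 and 702.7 CPM in ABA-treated L7, with no overlap, and was 2.3-fold lower in L12 (log2 fold change −1.2, SE 0.24, adjusted p = 0.00886). After mock it had 204.0, 168.3 and 402.6 CPM in L12 against 273.5, 434.1 and 541.5 CPM in L7, and fell by 0.74 (SE 0.24, adjusted p = 0.0326). The ABA call was lost without any single library of ABA-treated L12 or L7 (adjusted p-values of 0.014 to 0.0462), without mock L7 replicate 1 (0.0117) or 3 (0.0159) and without mock L12 replicate 1 (0.0136), although the looser threshold was passed in all 12 cases. After mock the looser threshold was missed without mock L7 replicate 2 or 3 or mock L12 replicate 1 or 2 (0.0583 to 0.15).

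RBOHF was higher in young leaves in this fit, but not with transcript length and GC content adjusted for, as given in the next paragraph. It had 28.3, 29.1 and 24.5 CPM in ABA-treated L12 against 18.8, 13.1 and 7.64 CPM in ABA-treated L7 (log2 fold change 1.16, SE 0.27, adjusted p = 0.0121), and 16.7, 14.7 and 10.6 CPM in mock-treated L12 against 13.2, 8.15 and 4.01 CPM in mock-treated L7 (0.82, SE 0.27, adjusted p = 0.0352). APX1 fell in ABA-treated L12 relative to ABA-treated L7, by 1.40 (SE 0.38, adjusted p = 0.0184), and gave −0.28 after mock (adjusted p = 0.558). RBOHF after ABA missed the threshold without ABA L7 replicate 2 or 3 or ABA L12 replicate 3 (adjusted p-values of 0.053 to 0.056), and after mock without mock L7 replicate 2 or 3, mock L12 replicate 2 or 3 or ABA L12 replicate 2 (0.0506 to 0.154). APX1 after ABA missed it without ABA L7 replicate 2 or 3 or ABA L12 replicate 2 (0.0753 to 0.0838).

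The age differences were also fitted with transcript length and GC content adjusted for. A relation between length and age difference over the members was not tested. CSD1, with 873 bases, is the shortest member and RBOHF, with 3994 bases, the longest. With length and GC content adjusted for, the RBOHF log2 fold change was −0.11 after ABA (adjusted p = 0.807) and −0.24 after mock (adjusted p = 0.565), opposite in sign to the unadjusted values. For CSD1 it was −0.55 after ABA (adjusted p = 0.0328) and −0.12 after mock (adjusted p = 0.583). For APX1 after ABA it was −0.97 (adjusted p = 0.0609). The same adjustment brought CSD2 (0.78, adjusted p = 0.0148), CAT2 (−0.81, adjusted p = 0.0262) and CAT3 (−1.21, adjusted p = 0.0154) past the looser threshold after mock, and CAT2 after ABA (−0.74, adjusted p = 0.0456).

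FSD1 was lower in L12 than in L7 in 3 of 3 replicates under either treatment, and the groups did not overlap. The log2 fold change was −0.92 after ABA (SE 0.38, adjusted p = 0.0813) and −1.02 after mock (SE 0.38, adjusted p = 0.0519). The looser threshold was passed after ABA without mock L12 replicate 2 (adjusted p = 0.0475), and after mock without mock L12 replicate 3 (0.0463) or ABA L12 replicate 3 (0.0204). Of 9 other settings, 2 passed it after mock, DESeq2 (0.0276) and limma with voom (0.0413), and 0 after ABA. FSD1 held 25.7% ± 5.92 of the FSD1, CSD1 and CSD2 messages in mock-treated L12 and 38.7% ± 6.18 in mock-treated L7 (SD, n = 3 each). CSD2 took the larger share in young leaves: 41.3% ± 1.86 in ABA-treated L12 and 28.3% ± 1.17 in ABA-treated L7, and 45.4% ± 5.37 in mock-treated L12 and 26.0% ± 3.77 in mock-treated L7. These shares of CSD2 and FSD1 did not overlap between ages except for FSD1 after ABA (exact permutation p = 0.1 for each of the 3).

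Among the 8 tested copper genes, 4 were called lower and 0 higher in mock-treated L12 relative to mock-treated L7, beside 14.9% of all genes called in either direction. At the looser threshold 6 fell and 1 rose, beside 41.2% of all genes, with a median log2 fold change of −1.87 against 0.04 over all genes. CCH had 104.3, 54.0 and 179.4 CPM in mock-treated L12, against 399.0, 373.2 and 761.5 CPM in mock-treated L7, and fell by 2.23 (SE 0.30, adjusted p = 0.0014). COPT6 fell by 1.51 (adjusted p = 0.00378), FRO4 by 2.87 (adjusted p = 0.00133) and COPT2, another copper transporter, by 3.92 (adjusted p = 0.00462). SPL7 was the gene that rose, with a log2 fold change of 1.22 (adjusted p = 0.0393). After ABA 1 of the 8, CCH, was called lower in L12 (−1.86, adjusted p = 0.00475), beside 6.81% of all genes called.

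The rest of the scavenging machinery was read from lists of 7 enzyme families with 53 genes, 40 of them tested. After ABA 1 was called higher and 1 lower in L12, where 4.54% of all genes were called. At the looser threshold 2 rose and 5 fell there, where 14.6% of all genes passed. In L7, 0 were called, and 1 rose and 5 fell at the looser threshold, where 11.5% of all genes passed. These counts are near the shares of all genes. The median log2 fold change was −0.09 in L12 and 0.04 in L7, close to the 0.03 of all genes.

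Within them 3 chloroplast peroxiredoxins, thiol enzymes that remove peroxides, fell. 2CPB had 139.0, 123.7 and 129.2 CPM in ABA-treated L12 against 275.1, 252.3 and 346.3 CPM in mock-treated L12, a fall of 1.13 (adjusted p = 0.0131), and fell by 1.16 in L7 (adjusted p = 0.0143). PRXQ fell by 0.91 in L12 (adjusted p = 0.0362) and by 1.08 in L7 (adjusted p = 0.0222), and 2CPA by 1.08 in L12 (adjusted p = 0.028). The cytosolic PRXIIB was called higher in L12, at 186.5, 157.1 and 187.2 CPM after ABA against 72.8, 69.0 and 84.8 CPM after mock (log2 fold change 1.23, SE 0.21, adjusted p = 0.00496).

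GPX2, a glutathione peroxidase-like enzyme, was called lower in L12, at 30.1, 21.4 and 35.5 CPM after ABA against 76.0, 39.2 and 113.1 CPM after mock (−1.31, SE 0.25, adjusted p = 0.00782). DHAR1, which regenerates ascorbate, rose in L12 with a log2 fold change of 1.29 (adjusted p = 0.0234). Of the other superoxide dismutases and their chaperones, 6 were tested and 0 passed after ABA, including the mitochondrial MSD1 (−0.19 in L12 and 0.02 in L7) and the peroxisomal CSD3 (−0.20 and −0.31).

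ZAT12, ZAT10 and BAP1, commonly read as outputs of oxidative stress, fell at both ages. Of 10 such genes listed, 9 were tested. In L12, 3 were called lower and 0 higher, beside 4.54% of all genes called. In L7, 2 were called lower and 0 higher, beside 2.94%. The zinc-finger factor ZAT12 had 4.09, 2.01 and 26.0 CPM in ABA-treated L12 against 43.2, 43.0 and 189.6 CPM in mock-treated L12, and 2.36, 4.30 and 23.2 CPM in ABA-treated L7 against 29.5, 30.1 and 224.2 CPM in mock-treated L7. It fell by 3.51 (SE 0.34, adjusted p = 0.000433) and by 3.19 (SE 0.34, adjusted p = 0.000929). Replicate 3 was the highest in each of the 4 groups.

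ZAT10, a related repressor, fell by 2.61 in L12 (SE 0.22, adjusted p = 0.000218) and by 2.19 in L7 (SE 0.22, adjusted p = 0.000682). BAP1, which responds to singlet oxygen, fell by 2.39 in L12 (adjusted p = 0.000437) and by 1.12 in L7 (adjusted p = 0.0135). Among the heat shock factors, which act ahead of APX2, HSFA3 was called lower at both ages, by 3.70 in L12 (adjusted p = 0.000456) and by 2.55 in L7 (adjusted p = 0.00353). HSFA6B rose in L12 (3.92, adjusted p = 0.0144) at low levels, 0.736, 2.41 and 1.99 CPM after ABA against 0.0431, 0.324 and 0.0 CPM after mock.

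Some markers of leaf cell types also moved with ABA. The summed CPM of 3 mesophyll genes ran from 17669 to 24818 in ABA-treated L12 against 31028 to 66840 in mock-treated L12, and from 13359 to 23391 in ABA-treated L7 against 29682 to 60576 in mock-treated L7. That of 4 guard cell genes ran from 29.9 to 38.3 in ABA-treated L12 against 73.9 to 98.5 in mock-treated L12, and from 9.23 to 12.4 in ABA-treated L7 against 41.8 to 115.2 in mock-treated L7. At the looser threshold 2 of 3 mesophyll genes fell at each age. Of 4 guard cell genes, 2 fell in L12 and 1 in L7, led by GC1 (−2.14 and −4.33). GC1 was the largest part of each mock sum, at 46.4, 37.2 and 80.8 CPM in L12 and 26.5, 104.7 and 68.1 CPM in L7. FAMA, another of the 4, overlapped between treatments. It had 12.1, 17.3 and 15.7 CPM after ABA against 15.8, 22.3 and 8.57 CPM after mock in L12. In L7 it had 5.31, 5.51 and 5.86 CPM against 8.73, 5.39 and 3.45 CPM. Of all genes, 14.6% passed in L12 and 11.5% in L7. The 2 phloem genes and the 3 tested of 4 epidermal and trichome genes did not pass. In L12 relative to L7, 4 of the 4 guard cell genes rose after ABA and 3 after mock. Of all genes, 36.4% passed after ABA and 41.2% after mock in this comparison. The part of cell type in the results for FSD1, CSD1, CSD2, APX1 and the oxidases was not tested.

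The gene whose pattern was most like that of each member was found from log2 CPM after the mean of each replicate number was removed, over 12 libraries and all tested genes. These values describe shared libraries and carry no test. FSD1 was nearest to AT3G18050 (Pearson r = 0.994), CSD1 to AT5G61220 (0.991), RBOHD to XBAT34 (0.984), CSD2 to AT1G47740 (0.976), RBOHF to HEN1, the methyltransferase that protects small RNAs (0.975), and APX1 to IDH-VI, a subunit of mitochondrial isocitrate dehydrogenase (0.96). The catalases had looser matches, CAT2 with the transcription factor MYB102 (0.914), CAT3 with AT5G41612 (0.9) and CAT1 with AT5G26770 (0.853). Among the members themselves the closest pair in the same direction was FSD1 and APX1 (0.777) and the most opposed was FSD1 and RBOHF (−0.886).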

How the data were processed

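Raw counts per gene were deposited by the authors for 12 libraries in 1 table with 32678 genes. Per the labels, RNA was polyA-selected and libraries were made with a directional kit. The submitters' processing notes name CASAVA 1.8.2, cutadapt 1.5, TopHat2 2.0.10, HTSeq 0.6.1 and the TAIR10 build. The strand setting of HTSeq is not stated. The 5 HTSeq summary lines, 5.97 to 10.3% of counts, were left out.

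Counts were fitted with edgeR 4.0.16 (TMM, glmQLFit and glmQLFTest, R 4.3.3) on the 18291 genes averaging 10 counts or more, with group and replicate number as terms over all 12 libraries, and p-values were adjusted over all genes. The study's cut-offs (0.01, and a log2 fold change beyond 1), put here on adjusted p-values of edgeR, gave the calls. The study itself used q-values after limma with voom. The replicate number was taken to mark the repeat of the experiment. Deviations from group means of same-numbered libraries correlated with a median of 0.361 (−0.0234 to 0.65, 16 of 18 pairs over 0.1). For the 36 other pairs the median was −0.217 (−0.651 to 0.461, 7 pairs over 0.1). No pair of libraries agreed within sampling noise. DESeq2 1.42.0, limma 3.58.1 with voom, other scalings, filters, a length and GC adjustment, and the omission of each replicate or library were alternatives. The scripts were tested on simulated data.

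Coordinates, transcript lengths (the longest transcript) and sequences came from the RefSeq TAIR10.1 genome and annotation, which gave all 126 listed genes. Outside the 2 antisense overlaps named in the text, the members shared no run of 50 bases with another gene. Named genes were the members, the genes of each related list past a threshold (at most 3 in each direction by size, and those tied to a member's pathway), and each member's most similar gene. DHAR1, 2CPA, 2CPB, PRXQ, HSFA6B, GI and PRR7 were named after their values were seen. The members and lists were chosen with earlier results of these data known.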

Additional observations from a re-analysis of the deposited data

How the results depend on the processing

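The number of members called moved with the test. After ABA in L7 it was 0 by edgeR, 1 by DESeq2 and 1 at an adjusted p below 0.05 with no minimum fold. In L12 it was 0, against 3 by DESeq2, 1 by limma with voom, 4 at the looser threshold and 0 to 2 with a replicate or library left out. For L12 against L7 after mock it was 0, and 2 at the looser threshold. For L12 against L7 after ABA it was 1, and 3 by DESeq2, 2 by voom, 3 with only the groups compared, 3 at the looser threshold, 0 with RLE factors, library-size scaling or the length and GC adjustment, and 0 to 2 with a replicate or library left out. Without the replicate block it was 0 in every comparison, and no member passed the looser threshold (smallest adjusted p, APX1 in L12, 0.0575). Scaling by library size also took the looser threshold from APX1 (ABA in L12, adjusted p = 0.0586; age after ABA, 0.0694), FSD1 (ABA in L7, 0.0626) and CSD1 (age after mock, 0.123), and the fit with only the groups compared took it from CSD1 (0.116) and RBOHF (0.0721) for age after mock. With only 2 replicates per group the fit called 0 members whichever number was left out.

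Of 1071 alternative log2 fold changes of members, 986 kept direction and side of the call, and none of the 55 that reversed had an adjusted p below 0.15. Scaling by library size moved the median of all genes by 0.42 (L12) and 0.49 (L7) for ABA and by 0.25 (after ABA) and 0.39 (after mock) for age. Under it the log2 fold change was 0.36 (CAT1) and 0.01 (CSD1) for ABA in L12, 0.13 (CSD2) for ABA in L7, −0.07 (CAT2) and −0.00 (FSD1) for the difference of the responses, 0.20 (CAT1) and 0.20 (CAT2) for age after ABA, and 0.27 (CAT2) and 0.06 (APX1) for age after mock. With the length and GC adjustment in the same fit as the replicate block it was −0.01 (CAT2) and −0.24 (CAT3) in L12, −0.08 (CAT2) in L7, −0.62 (CAT3), 0.17 (CSD2) and −0.11 (RBOHF) for age after ABA, and −0.16 (CAT1), 0.11 (APX1), −0.46 (RBOHD) and −0.24 (RBOHF) for age after mock. With only the groups compared CAT1 gave 0.03 (ABA in L12) and 0.01 (age after ABA). For the difference of the responses FSD1 gave −0.13 without the replicate block and CAT2 −0.01 without the filter.

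With a replicate or library left out, signs turned for CAT1 (ABA in L12, −0.18 to 0.23; ABA in L7, −0.02 to 0.55; age after ABA, −0.37 to 0.22; age after mock, −0.04 to 0.39), CAT2 (difference of the responses, −0.12 to 0.15; age after ABA, −0.20 to 0.05; age after mock, −0.21 to 0.06), CSD1 (ABA in L7, −0.04 to 0.32), CSD2 (age after ABA, −0.48 to 0.09), FSD1 (difference, −0.58 to 1.00), APX1 (age after mock, −0.60 to 0.11) and RBOHD (age after mock, −0.31 to 0.92). The ABA-minus-mock difference in the CAT3 share in L12, −0.529 percentage points, ran from −1.2 to 0.299, while that of FSD1 ran from −10.9 to −3.93 in L12 and from −21.3 to −16.0 in L7. Undivided counts, an alternative chosen after seeing the data, gave −0.524 and −7.53 in L12 and −3.36 and −20.4 in L7 for CAT3 and FSD1. The causes of these changes were not tested.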

Other observations

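Of 8 clock genes, 0 passed an adjusted p of 0.05 by edgeR after ABA at either age, beside 14.6% of all genes in L12 and 11.5% in L7. In L12 relative to L7, 4 rose after ABA, beside 36.4% of all genes, and 2 after mock, beside 41.2%. Their median log2 fold change was 0.79 for ABA in L12, 0.38 for ABA in L7, 1.18 for age after ABA and 0.26 for age after mock. GI, which times evening outputs, gave log2 fold changes of 1.22 after ABA (adjusted p = 0.0137) and 1.18 after mock (adjusted p = 0.0131), and PRR7, a morning repressor, gave 1.88 (adjusted p = 0.0181) and 1.77 (adjusted p = 0.0211). The cell-division gene KNOLLE rose in L12 by 2.53 after ABA (adjusted p = 0.0218) and by 3.47 after mock (adjusted p = 0.00685). ORE1, a senescence factor, fell by 4.6 in mock-treated L12 relative to mock-treated L7 (adjusted p = 0.00784) and rose with ABA in L12 (4.11, adjusted p = 0.0257), to 0.966, 11.4 and 7.48 CPM after ABA against 0.388, 0.283 and 0.22 CPM after mock.

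Photorespiratory hydrogen peroxide comes from glycolate oxidases, the source that peroxisomal catalase serves. Of 5 genes listed for this enzyme family, 0 passed after ABA, beside 14.6% of all genes in L12 and 11.5% in L7. In L12 relative to L7, 1 fell after ABA, beside 36.4% of all genes, and 3 fell after mock, beside 41.2%. The 3 were GOX1, HAOX1 (−1.11 after mock, adjusted p = 0.00681) and GOX3 (−3.61 after mock, adjusted p = 0.0114). GOX3 also fell after ABA (−2.25, adjusted p = 0.0304). The part of each gene in photorespiration was not tested.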
